A study of Mus musculus with 6 samples.

Results

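The DNA replication genes described here are 40 genes that license origins, unwind and copy DNA, and supply its building blocks. The rule lists them by name and uses no measured value, but the list was drawn up with earlier results of these data known. A probe set, a group of short probes on the array that reports 1 transcript region, counted as a member where the platform annotation gave it exactly 1 gene symbol and that symbol was among the 40. All 40 genes had at least 1 such probe set, and 72 of the 45037 probe sets tested were members. The values came from lungs of male BALB/c mice aged 10 weeks. The hydrogen group, with 3 samples, lived for 3 weeks in 98% air with 2% H2 gas, and the control group, with 3 samples, was kept in normal air. No transgene, deletion or second agent is given for either group. The labels do not say whether a sample is 1 mouse or a pool, so p-values measure the spread between these samples. Each sample was measured on its own MG-430 PM array, and a value below is the log2 intensity of a probe set after the authors' normalisation. A fold change is the hydrogen mean minus the control mean on that log2 scale. Where a gene had several probe sets, the one with the highest mean over the 6 arrays represented it.

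In a dividing cell, the origin recognition complex, Cdc6 and Cdt1 load the MCM helicase onto DNA in G1 phase, and kinases then switch the helicase on together with Cdc45 and the GINS complex. Polymerases held by the sliding clamp Pcna copy the strands, while ribonucleotide reductase and thymidylate synthase supply deoxynucleotides. Most of these genes are transcribed around S phase under E2F factors, and cells of the adult lung rarely divide, so their transcripts are usually low in whole lung.

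More replication genes were lower than higher in the hydrogen lungs, by amounts under 1 on the log2 scale. By representative probe set, 15 of 40 genes fell and 6 rose, and 19 did not pass, where passing means a Benjamini-Hochberg adjusted p below 0.05 in limma over all probe sets. Among all 17097 genes, 51.4% passed by the same rule, 25.9% as lower and 25.5% as higher. The ribonucleotide reductase gene Rrm2 had the lowest fold change of the 40 (-0.92), followed by the clamp loader gene Rfc4 (-0.80) and the polymerase gene Pola1 (-0.66). Orc1, of the origin recognition complex, had the highest (0.63). The median fold change was -0.13 over the 40 genes and 0.01 over all genes. In a whole-lung sample, fewer dividing cells and less RNA per cell cannot be told apart.

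The numbers of replication genes that fell and rose both depended on the scaling of the arrays. After cyclic loess, which removes trends with brightness between arrays, 17 of 40 fell and 1 rose, beside 16.1% and 20.5% of all genes. After renewed quantile normalisation 16 fell and 3 rose, beside 14.5% and 22.8% of all genes, and after centring each array on its median 23 fell and 4 rose, beside 35.8% and 15.7%. Without hydrogen replicate 2, 13 fell and 3 rose, beside 20.4% and 19.1% of all genes. Counted by probe set, 20 of 72 fell and 12 rose, beside 22.8% and 24.3% of all probe sets; after cyclic loess 24 fell and 5 rose (18.4% and 17% of all), after renewed quantile normalisation 23 and 7 (16.8% and 18.7%), and after centring 32 and 9 (32.4% and 14.2%). With 36 dim probe sets left out, those at or below the median brightness, 12 of 36 fell and 3 rose, beside 37.3% and 16.3% of all brighter probe sets. All hydrogen values lay below all control values for 19 genes and above them for 6, beside 29.9% and 31.2% of all genes. By probe set these were 24 and 14 of 72, beside 26.4% and 30.9% of all probe sets.

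**Figure D1:**
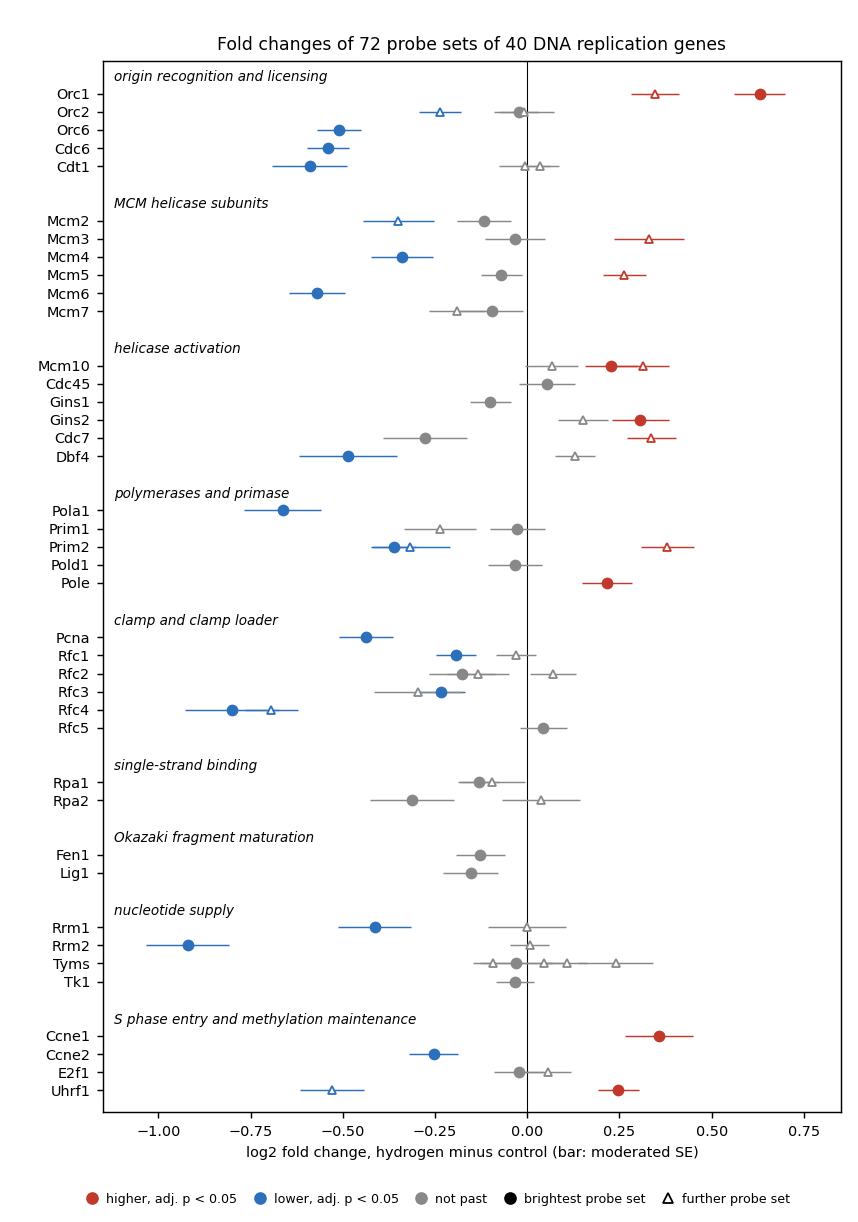
Fold change of each of the 72 probe sets, hydrogen minus control on the log2 scale, by gene and by role. Circles are the brightest probe set of a gene, triangles are its further probe sets, bars are moderated standard errors, and colours give the direction at an adjusted p under 0.05. Rrm2 lies lowest at -0.92 and Orc1 highest at 0.63, and Prim2 and Uhrf1 have coloured symbols on both sides of 0.

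Differences between the groups were widespread on these arrays. By the same rule 47.1% of all probe sets differed. Of 85 control probe sets whose names do not mark them as mouse, 27 were lower and 15 higher, with fold changes from -0.97 to 1.07. No member probe set moved by more than the largest of these. The medians of the arrays were 4.84 to 4.85 in the hydrogen group and 4.75 to 4.76 in the control group, and the SD over probe sets was 1.80 to 1.81 in the hydrogen group and 1.90 to 1.92 in the control group. The labels give no batch, so exposure and any batch that ran with it cannot be told apart. The lung marker Sftpc, of surfactant protein C, stood at 13.16 to 13.19 in the hydrogen group and 13.14 to 13.16 in the control group. This is close to the highest probe set mean of 13.22. Of the 5 lung epithelium markers measured, 2 fell and none rose, with fold changes from -0.58 to 0.02. With 3 arrays against 3, an exact permutation test of a single value cannot give a two-sided p below 0.1, and precision rests on so few arrays.

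Upstream sequences are shown for 4 of the genes that fell and for Orc1, which rose, because many replication genes have E2F or CCAAT motifs near their starts. No rule picked these genes, so they do not stand for all that fell. Rfc4, with the second lowest fold change, is not shown, and its window holds neither motif. The sequences are the 250 bases before the start in RefSeq's annotation of GRCm38.p6, read 5′ to 3′ on the gene's strand. Capitals mark matches to the E2F motifs TTTCGCGC, TTTGGCGC, TTTCCCGC and TTTGCCGC or to CCAAT, on either strand.
Rrm2 (chr12:24708004-24708253, plus strand): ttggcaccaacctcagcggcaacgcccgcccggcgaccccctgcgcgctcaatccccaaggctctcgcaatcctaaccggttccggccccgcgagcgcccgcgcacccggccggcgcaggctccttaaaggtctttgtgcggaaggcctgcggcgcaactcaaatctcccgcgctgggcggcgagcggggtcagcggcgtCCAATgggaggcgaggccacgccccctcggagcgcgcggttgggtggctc
Pola1 (chrX:93632156-93632405, minus strand): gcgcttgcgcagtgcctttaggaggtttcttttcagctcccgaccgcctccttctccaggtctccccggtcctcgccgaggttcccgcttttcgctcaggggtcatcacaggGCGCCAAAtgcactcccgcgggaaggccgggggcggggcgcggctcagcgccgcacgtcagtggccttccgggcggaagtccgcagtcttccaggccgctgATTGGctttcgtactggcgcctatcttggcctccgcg
Mcm6 (chr1:128359706-128359955, minus strand): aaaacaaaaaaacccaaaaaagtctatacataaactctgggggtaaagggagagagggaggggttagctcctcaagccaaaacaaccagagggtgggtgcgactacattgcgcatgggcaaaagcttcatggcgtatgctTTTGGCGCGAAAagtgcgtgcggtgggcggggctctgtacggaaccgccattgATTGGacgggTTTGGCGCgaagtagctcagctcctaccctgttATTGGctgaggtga
Cdc6 (chr11:98907901-98908150, plus strand): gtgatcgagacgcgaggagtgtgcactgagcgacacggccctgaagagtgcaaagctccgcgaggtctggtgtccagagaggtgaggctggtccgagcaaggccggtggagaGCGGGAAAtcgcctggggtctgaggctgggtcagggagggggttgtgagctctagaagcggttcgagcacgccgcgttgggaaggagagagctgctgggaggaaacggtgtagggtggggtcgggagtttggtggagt
Orc1 (chr4:108579204-108579453, plus strand): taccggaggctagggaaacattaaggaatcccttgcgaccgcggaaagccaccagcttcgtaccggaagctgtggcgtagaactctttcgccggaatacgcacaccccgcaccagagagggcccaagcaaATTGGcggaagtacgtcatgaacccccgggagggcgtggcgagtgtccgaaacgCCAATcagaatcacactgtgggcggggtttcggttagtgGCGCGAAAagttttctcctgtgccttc

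Positions give the first base of a match, with -1 the base just before the start. Mcm6 holds E2F matches at -110, -106 and -47, of which the first pair overlap on opposite strands. The E2F match of Cdc6 lies at -138, that of Pola1 at -138 and that of Orc1 at -27. Rrm2 has a CCAAT match at -50 and none of the E2F letters in this window. Promoter windows of 300 bases, with 250 before and 50 after the start, were listed for 33 of the 40 genes. The genes Mcm4, Gins1, Gins2, Rfc2, Pole, Prim2 and Ccne2 were not among them. An E2F match lay in at least 1 window of 12 of the 33 genes (36.4%), against 2.6% of all 27025 genes with a window. A CCAAT match lay in 20 (60.6%), against 41.1% of all. By direction, the E2F letters were found for 5 of 12 genes that fell, 2 of 4 that rose and 5 of 17 that did not pass. A match is a run of letters and not a bound site.

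Genes of origin licensing moved in both directions. Cdc6, the ATPase that brings the MCM complex to origins, had 3.65, 3.66 and 3.75 in the hydrogen lungs and 4.19, 4.28 and 4.21 in the control lungs. Hydrogen values were all the lower ones, and the fold change was -0.54 (SE 0.06, limma adjusted p = 0.000414). Its single probe set is dim. Orc6, a subunit of the origin recognition complex, had 5.28, 5.29 and 5.43 in the hydrogen lungs and 5.86, 5.86 and 5.81 in the control lungs. That is a fall without overlap by 0.51 (SE 0.06, limma adjusted p = 0.000598). Orc1, the ATPase subunit of the same complex, went the other way, with 6.00, 6.09 and 5.93 in the hydrogen lungs and 5.30, 5.35 and 5.48 in the control lungs. The groups did not overlap, with a fold change of 0.63 (SE 0.07, limma adjusted p = 0.000462). Its dimmer probe set rose as well (0.35, limma adjusted p = 0.00363), so Orc1 is the only member with several probe sets that all rose. The calls of Cdc6, of Orc6 and of both Orc1 probe sets were kept under each alternative that tested them.

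Cdt1, the partner of Cdc6 in loading the helicase, fell by 0.59 (SE 0.10, limma adjusted p = 0.00237) on its brightest probe set. That probe set averaged 6.75 ± 0.22 in the hydrogen group and 7.34 ± 0.03 in the control group (SD, n = 3 each). Its 2 further probe sets had 0.03 and -0.01 and did not pass. For Orc2, another subunit of the recognition complex, the brightest probe set had -0.02, a second one fell by 0.24 (limma adjusted p = 0.0103), and the dimmest had -0.01. Of the 5 licensing genes, 3 fell, 1 rose and 1 did not pass, while 25.9% of all genes fell and 25.5% rose. The licensing counts were the same after cyclic loess, renewed quantile normalisation and centring, where the shares of all genes moved as given above.

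The MCM subunits, which form the hexameric ring that unwinds DNA, did not move alike. Mcm6 had 4.96, 5.01 and 5.16 in the hydrogen lungs and 5.72, 5.51 and 5.61 in the control lungs. No values overlapped, and the fold change was -0.57 (SE 0.08, limma adjusted p = 0.000922). Mcm4 fell by 0.34 (SE 0.08, limma adjusted p = 0.0116), a call that ended after cyclic loess (-0.14) and renewed quantile normalisation (-0.11). The brightest probe sets of Mcm2, Mcm3, Mcm5 and Mcm7 had fold changes of -0.12, -0.03, -0.07 and -0.10 and did not pass, although that of Mcm5 passed after cyclic loess (-0.17) and renewed quantile normalisation (-0.17). All 6 representative values were below 0, although those of Mcm2 and Mcm7 turned to 0.08 and 0.04 after cyclic loess, and dimmer probe sets of Mcm3 (0.33) and Mcm5 (0.26) rose and a dimmer one of Mcm2 fell by 0.35. The dimmer Mcm3 call was lost on leaving out hydrogen replicate 1 or control replicate 2 or 3, and under all 3 rescalings (limma adjusted p up to 0.144). The dimmer Mcm2 call was lost without hydrogen replicate 1 or 2 (up to 0.0579). The dimmer Mcm5 call was kept in all alternatives that tested it.

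Factors that switch the loaded helicase on gave 2 rises (33.3%) and 1 fall (16.7%) among 6 genes, beside 25.5% and 25.9% of all genes. With so few genes, these counts do not set the role apart. Gins2, a subunit of the GINS complex, had 5.18, 5.16 and 5.22 in the hydrogen lungs and 4.84, 4.76 and 5.04 in the control lungs. The hydrogen values were all higher, with a fold change of 0.31 (SE 0.08, limma adjusted p = 0.0119). After cyclic loess the fold change was 0.22, with an adjusted p of 0.05003 in limma. The dimmer Gins2 probe set had 0.15 with overlapping groups and did not pass (limma adjusted p = 0.0987), and had 0.03 after cyclic loess. Mcm10, a scaffold of the active helicase, had 5.43, 5.55 and 5.51 in the hydrogen lungs and 5.14, 5.36 and 5.31 in the control lungs. The groups did not overlap, by a fold change of 0.23 (SE 0.07, limma adjusted p = 0.0303). This call was lost without control replicate 1 (limma adjusted p = 0.0851), hydrogen replicate 2 (0.0987) or hydrogen replicate 3 (0.0705), after centring (0.154) and after cyclic loess (0.0575). A dimmer Mcm10 probe set rose by 0.31, a call that ended after cyclic loess and renewed quantile normalisation, and the dimmest had 0.07.

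The kinase that fires origins consists of the catalytic subunit Cdc7 and its activator Dbf4. Dbf4 averaged 5.10 ± 0.26 in the hydrogen group and 5.59 ± 0.17 in the control group (SD, n = 3 each), a fall of 0.49 (SE 0.13, limma adjusted p = 0.0172). The call was lost on leaving out hydrogen replicate 1 or 2 or control replicate 2 or 3 (limma adjusted p up to 0.0587). A dimmer Dbf4 probe set had 0.13, with all hydrogen values above the control values, and did not pass (limma adjusted p = 0.0818). The brighter of 2 Cdc7 probe sets had -0.28 (limma adjusted p = 0.0746), and passed after cyclic loess (-0.38) and renewed quantile normalisation (-0.35), while the dimmer one rose by 0.34 (limma adjusted p = 0.00408) and kept its call in all alternatives that tested it. Gins1 (-0.10) and Cdc45 (0.05) did not pass, but Gins1 passed after cyclic loess (-0.21) and renewed quantile normalisation (-0.18). After cyclic loess, where 16.1% of all genes fell and 20.5% rose, neither rise of these 6 genes passed and 3 genes fell. Without hydrogen replicate 2, where 20.4% of all genes fell and 19.1% rose, the single call was a rise.

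Among the polymerases, Pola1 had the largest change. This catalytic subunit of polymerase alpha, which extends primers, had 4.80, 4.59 and 4.74 in the hydrogen lungs and 5.47, 5.14 and 5.51 in the control lungs. Hydrogen values were all lower, and the fold change was -0.66 (SE 0.10, limma adjusted p = 0.00165), between -0.78 and -0.60 over all alternatives that tested this probe set. Pole, the catalytic subunit of polymerase epsilon, had 4.55, 4.61 and 4.56 in the hydrogen lungs and 4.27, 4.32 and 4.48 in the control lungs. The hydrogen values were higher by 0.22 (SE 0.07, limma adjusted p = 0.0280). The Pole call was lost on leaving out any array but control replicate 3, with limma adjusted p = 0.0872 and 0.0826 without control replicates 1 and 2 and 0.0566, 0.0890 and 0.0549 without hydrogen replicates 1, 2 and 3. It was lost as well after centring (0.13), cyclic loess (0.07) and renewed quantile normalisation (0.10). Pold1, of polymerase delta, and the primase gene Prim1 both had -0.03. A dimmer Prim1 probe set had -0.24 and did not pass (limma adjusted p = 0.0733).

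Prim2, the larger subunit of primase, had probe sets that changed in opposite directions. The brightest (1418035_PM_a_at) had 5.73, 5.71 and 5.64 in the hydrogen lungs and 6.11, 5.99 and 6.06 in the control lungs. That is lower by 0.36 without overlap (SE 0.06, limma adjusted p = 0.00184). The next (1418036_PM_at) had 4.75, 4.54 and 4.85 in the hydrogen lungs and 5.16, 5.11 and 4.82 in the control lungs, with a fold change of -0.32 and overlapping groups. The limma adjusted p of 0.0404 was lost without control replicate 1 (0.127) or 2 (0.121) and hydrogen replicate 1 (0.0737) or 2 (0.133), and with a replicate block (0.0653). The dimmest (1445474_PM_at) had 4.93, 4.92 and 5.09 in the hydrogen lungs and 4.55, 4.70 and 4.55 in the control lungs. It rose by 0.38 (SE 0.07, limma adjusted p = 0.00347), and the mean of the 3 probe sets had -0.10 (limma adjusted p = 0.185).

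The sliding clamp and its loader held 4 falls and no rise among 6 genes, beside 25.9% and 25.5% of all genes. Rfc4, a subunit of the clamp loader, had 4.39, 4.22 and 4.46 in the hydrogen lungs and 5.44, 4.90 and 5.13 in the control lungs. Hydrogen values were all lower, with a fold change of -0.80 (SE 0.13, limma adjusted p = 0.0018). Its dimmer probe set had 3.59, 3.50 and 3.67 in the hydrogen lungs and 4.35, 4.17 and 4.32 in the control lungs, a fall by 0.69 (SE 0.07, limma adjusted p = 0.000378). Rfc4 was the only gene of the 40 with several probe sets that all fell, and both calls were kept in all alternatives that tested them. Pcna, the clamp itself and one of the brightest members, had 8.78, 8.65 and 8.82 in the hydrogen lungs and 9.24, 9.07 and 9.25 in the control lungs. Again no values overlapped, and the fold change was -0.44 (SE 0.07, limma adjusted p = 0.00212), or -0.27 after cyclic loess (0.0171).

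The other loader subunits changed less. Rfc3 fell by 0.23 (SE 0.07, limma adjusted p = 0.0193), a call lost without hydrogen replicate 3 or control replicate 1 or 2 (up to 0.0611). Rfc1, the large subunit, fell by 0.19 (SE 0.05, limma adjusted p = 0.0177), but had 0.01 after cyclic loess and 0.04 after renewed quantile normalisation. That call was lost without control replicate 1 or hydrogen replicate 2 too. Rfc2 (-0.18) and Rfc5 (0.04) did not pass.

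None of the 4 genes of single-strand binding and fragment maturation passed by representative probe set, with unadjusted p of 0.0239 for Rpa2, 0.0387 for Rpa1, 0.0745 for Lig1 and 0.0926 for Fen1 in limma. After centring, which moved the median of all genes to -0.08 and gave 35.8% of them as lower, all 4 passed as lower. Of the 4, only Fen1 passed after cyclic loess or renewed quantile normalisation. Rpa2, a subunit of the complex that coats unwound strands, had 5.16, 5.54 and 5.54 in the hydrogen lungs and 5.83, 5.57 and 5.78 in the control lungs. All hydrogen values were the lower ones, with a fold change of -0.31 (SE 0.11, limma adjusted p = 0.0506). It passed without control replicate 2 (0.0406) or hydrogen replicate 3 (0.0441) and after centring (0.0191). Without hydrogen replicate 1 its fold change was -0.19 (limma adjusted p = 0.131), its dimmer probe set had 0.04, and the mean of both had -0.14 (0.271). The abundant Rpa1 had -0.13 on its brightest probe set, with 9.01 ± 0.05 in the hydrogen group and 9.14 ± 0.02 in the control group (SD, n = 3 each). Lig1, which seals nicks between Okazaki fragments, had 6.83, 7.10 and 7.05 in the hydrogen lungs and 7.15, 7.15 and 7.14 in the control lungs. The groups did not overlap, but the fold change of -0.15 (SE 0.08, limma adjusted p = 0.126) turned to 0.04 after cyclic loess and 0.07 after renewed quantile normalisation. Without hydrogen replicate 1 it was -0.07 (limma adjusted p = 0.382). Fen1, the flap nuclease that trims these fragments, had -0.13, and passed after cyclic loess (-0.25).

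Ribonucleotide reductase makes deoxynucleotides, and both of its subunits that serve S phase fell. Rrm2, the subunit whose level limits the enzyme, had 3.90, 4.16 and 4.10 in the hydrogen lungs and 4.79, 4.92 and 5.21 in the control lungs. The groups did not overlap, and the fold change was -0.92 (SE 0.11, limma adjusted p = 0.000657). The other Rrm2 probe set, with means of 4.13 ± 0.04 in the hydrogen group and 4.12 ± 0.02 in the control group (SD, n = 3 each), had 0.01. Rrm1, the large subunit, fell by 0.41 (SE 0.10, limma adjusted p = 0.00989) on its brighter probe set and had 0.00 on the other. The Rrm1 call ended after cyclic loess (-0.22) and renewed quantile normalisation (-0.18). Thymidylate synthase (Tyms) had 5 probe sets from -0.09 to 0.24 and thymidine kinase (Tk1) had -0.03, and none passed, although Tk1 passed after cyclic loess (-0.16, limma adjusted p = 0.0479). The Tyms probe set at -0.09 passed as lower after cyclic loess (-0.18, limma adjusted p = 0.0298) and renewed quantile normalisation (-0.19, 0.0301).

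Genes of S phase entry moved in opposite directions. Ccne1, a cyclin that drives cells into S phase, had 4.03, 4.26 and 4.19 in the hydrogen lungs and 3.73, 3.70 and 3.98 in the control lungs. The hydrogen values were higher without overlap, by 0.36 (SE 0.09, limma adjusted p = 0.0133). The call was lost after cyclic loess (0.0700) and renewed quantile normalisation (0.0706) and without hydrogen replicate 2 (0.0504). Its paralog Ccne2 fell by 0.25 (SE 0.07, limma adjusted p = 0.0141), from a dim probe set with 3.14 ± 0.06 in the hydrogen group and 3.39 ± 0.10 in the control group (SD, n = 3 each). The transcription factor gene E2f1 had -0.02 and 0.06 on its 2 probe sets and did not pass.

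Uhrf1, which brings the maintenance DNA methyltransferase to newly copied DNA, was the other gene with opposite calls. Its brighter probe set (1415811_PM_at) had 4.48, 4.58 and 4.50 in the hydrogen lungs and 4.23, 4.29 and 4.30 in the control lungs. That is higher by 0.25 without overlap (SE 0.06, limma adjusted p = 0.00777), but the call ended after cyclic loess (0.10) and renewed quantile normalisation (0.13). The dimmer one (1415810_PM_at) had 3.95, 4.14 and 4.25 in the hydrogen lungs and 4.69, 4.71 and 4.53 in the control lungs. It fell by 0.53 (SE 0.09, limma adjusted p = 0.00201) and kept that call in all alternatives that tested it. The mean of both had -0.14.

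**Figure D2:**
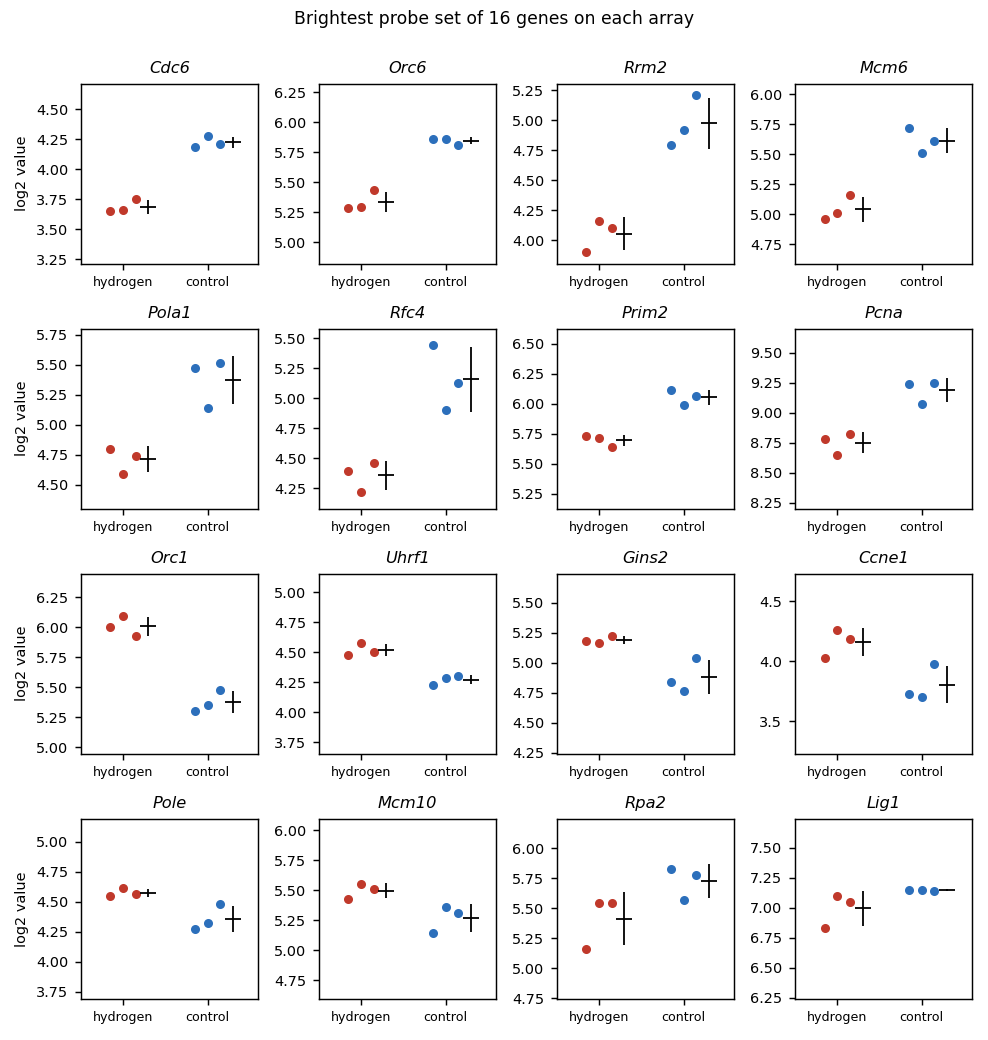
Log2 value of the brightest probe set of 16 replication genes on each array, 3 hydrogen arrays left and 3 control arrays right, with the group mean and SD in black. Each panel spans the same log2 range. In the upper 8 panels all hydrogen points lie below all control points, and from Orc1 to Mcm10 all lie above them.

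Probe sets of the same gene often differed in their calls. Of the 24 members with over 1 probe set, 2 had all probe sets called one way (Rfc4 lower and Orc1 higher), 13 had both called and uncalled probe sets, 7 had none called and 2, Prim2 and Uhrf1, had opposite calls. Opposite calls made up 8.33% of these 24 genes, beside 11.6% of the 7180 genes on the array with several probe sets. Genes with called and uncalled probe sets made up 53.2% of those 7180 genes. The shares with all probe sets called one way, or with none called, were not counted over those 7180 genes. The 2 and 7 members of these kinds therefore do not set the list apart. Fold changes of both signs were found for 12 of the 24, beside 48.2% of the 7180. Which transcript region each probe set covers was not analysed here. Counting any probe set, 18 of the 40 genes had a fall, 10 had a rise and 14 had neither, beside 31.3%, 34.9% and 38.6% of all genes.

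Brightness moved with direction on these arrays, and 2 of the 72 member probe sets lay in the highest decile. Over all probe sets, sorted into 10 deciles by mean log2 value, the median fold change was 0.15 in the fourth decile, against -0.23 in the ninth. Of the 72 member probe sets, 36 lay at or below the median probe set. Among those, 8 fell (22.2%) and 9 rose (25.0%), whereas 7.31% of all probe sets of that brightness fell and 32.0% rose. Of the 36 brighter ones, 12 fell (33.3%) and 3 rose (8.33%), beside 38.2% and 16.7% of all brighter probe sets. By representative probe set, 10 of the 27 member genes above that median fell (37.0%) and 3 rose (11.1%). Of all genes above it, 37.9% fell and 16.4% rose. Of the 13 dim member genes, 5 fell (38.5%) and 3 rose (23.1%), beside 5.28% and 41.0% of all dim genes. Relative to the median of its own decile, the median member gene stood at -0.14. Rrm2, Rfc4, Cdc6 and Ccne2 fell although the deciles that hold them had positive medians (0.15, 0.15, 0.14 and 0.03), while the falls of Rfc1 (-0.19) and Mcm4 (-0.34) stood beside a decile median of -0.23. A low signal compresses the fold change of a dim probe set.

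**Figure D3:**
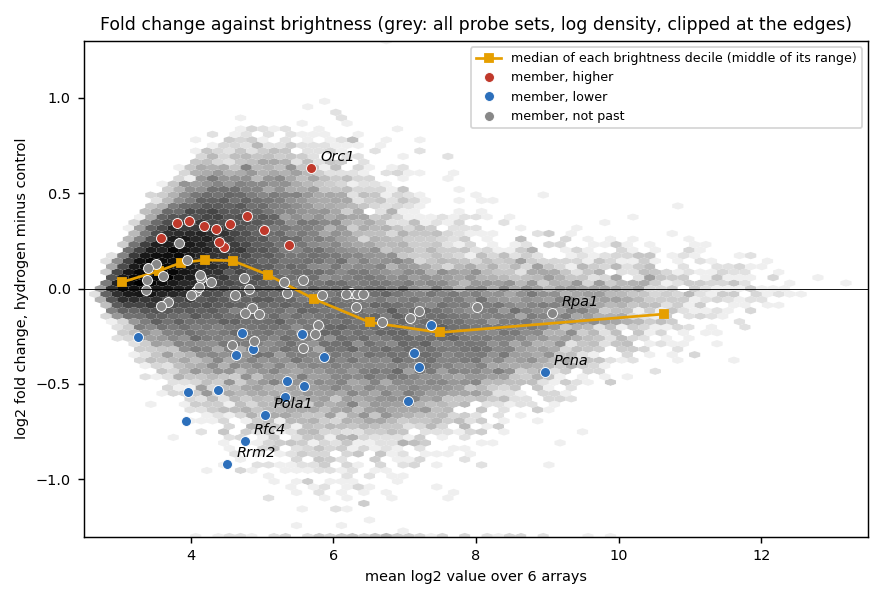
Fold change, hydrogen minus control, against the mean log2 value over 6 arrays for all probe sets (grey density on a log scale) and the 72 member probe sets (coloured points). The orange line joins the medians of the 10 brightness deciles. Rrm2 and Rfc4 lie far below the line at low brightness, and Orc1 far above it.

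The members' median was below the control level on each hydrogen array. Against the control mean of each gene, the median of the 40 genes was -0.19, -0.14 and -0.11 in hydrogen replicates 1, 2 and 3. In controls it lay between -0.01 and 0.01, which is near 0 by construction, because each gene's control mean was subtracted. All genes together had medians from 0.003 to 0.01 on the hydrogen arrays.

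Other replication factors had falls and rises too. Of 32 further genes of the replication machinery, 16 fell and 5 rose, with a median of -0.22, beside 25.9% and 25.5% of all genes. Only 8 of the 32 were dim, and of all genes above the median brightness 37.9% fell and 16.4% rose. Relative to its brightness decile, the median gene stood at -0.12. After cyclic loess 13 fell and 4 rose with a median of -0.12, beside 16.1% and 20.5% of all genes. Topbp1, which helps to activate the helicase and the ATR checkpoint kinase, averaged 6.72 ± 0.13 in the hydrogen group and 7.62 ± 0.08 in the control group (SD, n = 3 each), a fold change of -0.90 (limma adjusted p = 0.000265). Dna2, a nuclease and helicase of fragment processing, fell by 0.67, and Rpa3, the smallest subunit of the strand-coating complex, fell by 0.84. Higher were Ticrr (0.45), a partner of Topbp1 in origin firing, the RecQ helicase gene Recql4 (0.54), and Pold3 (0.47), an accessory subunit of polymerase delta. The brightest probe sets of these 6 genes passed in the same direction after cyclic loess, after renewed quantile normalisation and on leaving out each array. Topbp1, Dna2, Ticrr and Pold3 each have at least 1 further probe set that did not pass. Of 15 further genes of nucleotide supply, 4 fell and 2 rose, beside 25.9% and 25.5% of all genes. After cyclic loess 1 fell and 4 rose, beside 16.1% and 20.5% of all genes, and the median of -0.03 turned to 0.11. After renewed quantile normalisation 1 fell and 6 rose, beside 14.5% and 22.8% of all genes. Deoxycytidine kinase (Dck), of the salvage route, fell by 0.61 and passed after cyclic loess and renewed quantile normalisation, while the falls of the dUTPase gene Dut (-0.34) and the CTP synthase gene Ctps2 (-0.27) ended after cyclic loess (-0.18 and -0.08), and each has a further probe set that rose. Cad and Umps, of pyrimidine synthesis, both rose by 0.47, although each had a further probe set that fell.

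The list of E2F and RB family genes and G1/S regulators held more falls than rises. Of 24 genes, 14 fell and 3 rose, with a median of -0.25, beside 25.9% and 25.5% of all genes. Only 3 of the 24 were dim, and of all genes above the median brightness 37.9% fell and 16.4% rose. Relative to its brightness decile, the median gene stood at -0.145. After cyclic loess 8 fell and 2 rose with a median of -0.16, beside 16.1% and 20.5% of all genes. Without hydrogen replicate 2, 11 fell and 1 rose, beside 20.4% and 19.1%. The list joins activators and inhibitors of S phase. Among those that fell, Rb1 (-0.56) encodes the retinoblastoma protein that holds E2F factors in check, Fbxw7 (-0.48) the ubiquitin ligase subunit that marks cyclin E for degradation, and E2f5 (-0.44) a repressive E2F factor. E2f4 (0.38), also a repressive E2F factor, rose. The rises of Skp2 (0.27), which marks the inhibitor encoded by Cdkn1b for degradation, and Cdkn2c (0.20), an inhibitor of cyclin D kinases, were each lost without hydrogen replicate 1, 2 or 3 or control replicate 2, and that of Cdkn2c without control replicate 3 too (limma adjusted p up to 0.0840 and 0.0989). After cyclic loess Skp2 had 0.15 and lost its call (limma adjusted p = 0.216), while Cdkn2c had 0.40 and kept it (0.00218). Renewed quantile normalisation gave 0.19 for Skp2, without a call, and 0.43 for Cdkn2c, with one, and Skp2 has a further probe set that fell. Of 8 genes that assemble chromatin on new DNA, 2 fell and 2 rose (25% each), close to the 25.9% and 25.5% of all genes. The called genes were Atad2 (-0.44), which has a further probe set that rose, and the maintenance methyltransferase gene Dnmt1 (-0.23) on the lower side. On the higher side were Tonsl (0.37) and the histone chaperone gene Asf1b (0.22). The Dnmt1 call was lost after cyclic loess (-0.03) and renewed quantile normalisation (0.00) and on leaving out any array but hydrogen replicate 3 (limma adjusted p up to 0.146), and that of Asf1b without control replicate 1 or hydrogen replicate 1 (up to 0.0659).

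Markers of mitosis and proliferation also moved in both directions. Of 19 such genes, 7 fell (36.8%) and 4 rose (21.1%) with a median of -0.05, beside 25.9% and 25.5% of all genes. Relative to its brightness decile, the median gene stood at -0.14. After cyclic loess 8 fell and 3 rose with a median of -0.15, beside 16.1% and 20.5% of all genes. Without hydrogen replicate 2, 4 fell (21.1%) and 3 rose (15.8%) with a median of -0.14, beside 20.4% and 19.1%. After renewed quantile normalisation 8 fell and 2 rose (-0.14), beside 14.5% and 22.8%. Mki67, the usual marker of cycling cells, had 4.53, 4.63 and 4.69 in the hydrogen lungs and 5.87, 5.57 and 6.01 in the control lungs, a fold change of -1.20 without overlap (SE 0.11, limma adjusted p = 0.000283). Top2a (-0.75), the topoisomerase that untangles chromosomes, fell on its brightest probe set while 2 others rose, and Ube2c (-0.54), of the anaphase machinery, fell. Foxm1, a transcription factor of the G2 and M phases, averaged 6.41 ± 0.10 in the hydrogen group and 5.68 ± 0.06 in the control group, higher by 0.73 (SD, n = 3 each, limma adjusted p = 0.000305). The mitotic kinase genes Plk1 (0.37) and Ttk (0.33) rose, Ttk not after renewed quantile normalisation (limma adjusted p = 0.0522).

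**Figure D4:**
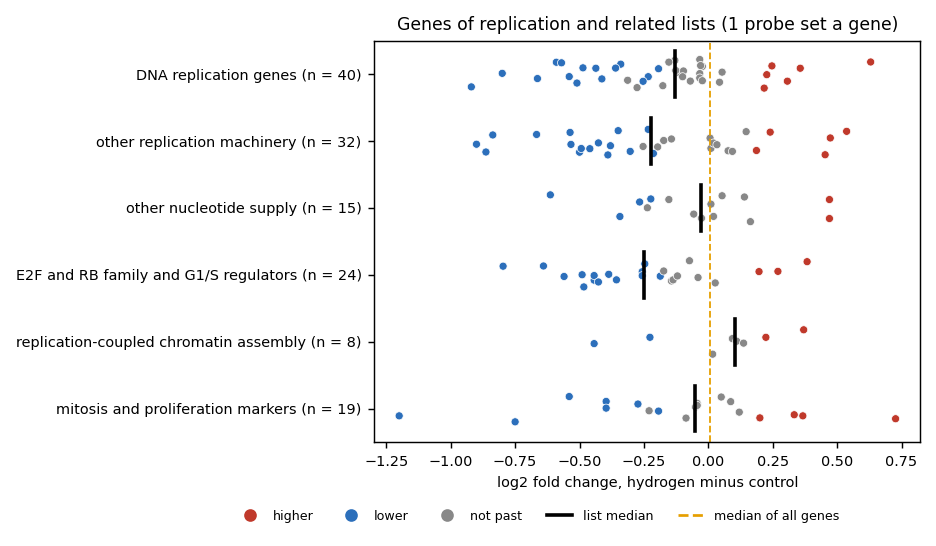
Fold change, hydrogen minus control on the log2 scale, of the 40 replication genes and of 5 related gene lists, 1 probe set a gene. Black bars are list medians and the dashed line is the median of all 17097 genes. Mki67 lies lowest of the points shown, at -1.20, and Foxm1 highest, at 0.73.

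Markers of other cells differed between the same groups, where 25.9% of all genes fell and 25.5% rose. Of 5 lung epithelium markers 2 fell, of 5 lung endothelium markers 1 fell, and of 2 adipocyte markers 1 rose and 1 fell. Of 7 T cell markers, 3 rose and 1 fell, with summed linear signals of 357 to 406 in the hydrogen group and 315 to 345 in the control group. Of 6 thymocyte markers, 3 rose and none fell (108 to 116 in the hydrogen group and 95.8 to 96.4 in the control group), and 5 of the 6 were dim, Rag1, Rag2, Ptcra, Dntt and Cd8b1. Of all dim genes, 41.0% rose and 5.28% fell. Of 5 B cell markers, 3 rose (531 to 651 in the hydrogen group and 451 to 507 in the control group). Germinal centre B cell markers had 1 rise and 1 fall among 4 (360 to 435 in the hydrogen group and 445 to 462 in the control group). Neutrophil markers had 2 rises among 5 (1147 to 1704 in the hydrogen group and 794 to 1176 in the control group), alveolar macrophage markers 1 fall among 5 (965 to 1966 in the hydrogen group and 1644 to 2409 in the control group), and erythroid markers 1 rise and 1 fall among 4. All 7 cardiac muscle markers fell, with 494 to 2781 in the hydrogen group and 5549 to 7082 in the control group, and the lowest sum was that of hydrogen replicate 2. The median fold change of the 40 replication genes was -0.12 without that array. Several of these counts moved with the processing. So did the shares of all genes that fell and rose, which were 16.1% and 20.5% after cyclic loess. They were 14.5% and 22.8% after renewed quantile normalisation, 35.8% and 15.7% after centring, and 20.4% and 19.1% without hydrogen replicate 2. After cyclic loess and after renewed quantile normalisation, all 5 neutrophil markers and 4 of 5 B cell markers rose, and 1 of 6 thymocyte markers did. In both rescalings 4 of 7 T cell markers rose and no germinal centre B cell or lung endothelium marker fell, and the erythroid rise was lost. After centring, 2 thymocyte and 2 B cell markers rose and 2 lung endothelium markers fell, while the germinal centre B cell rise was lost. Without hydrogen replicate 2, 2 thymocyte and 2 B cell markers rose and 1 alveolar macrophage marker rose while none fell. That array's removal also ended the erythroid fall, 1 of the 2 lung epithelium falls and the calls of germinal centre B cell and adipocyte markers. The 7 cardiac muscle markers fell under each of these 4 settings. The part of these markers in the replication result was not tested.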

How the data were processed

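Lung RNA was amplified, biotin-labelled and measured on MG-430 PM strips with the GeneAtlas system, per the labels' protocols. The deposited log2 values are RMA intensities made by the authors with Affymetrix Expression Console, per the submitters' processing notes. Their versions and whether all 6 arrays were normalised together: not given in the sources used here. Of 45141 probe sets, 104 controls were left out of the main test. Genes were named from the platform annotation, and all 40 symbols matched RefSeq of GRCm38.p6 by Entrez identifier.

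Hydrogen and control arrays, 3 each, were compared in limma 3.58.1 (R 4.3.3) with lmFit and eBayes, without a trend, a filter or further normalisation, and with Benjamini-Hochberg adjustment at 0.05 over 45037 probe sets. The control probe sets had a separate fit that held every probe set of the table. The fit was tested on simulated data. Alternatives were a replicate block, centring, renewed quantile normalisation, cyclic loess, array weights, a trended robust prior, leaving out dim or shared probe sets, 1 probe set a gene, the mean of a gene's probe sets, and each array left out in turn. The members and lists were chosen with earlier results of these data known. Every array is given for the 8 called genes with the smallest p in each direction without overlap (6 qualified as higher), for opposite calls and for the gene with the smallest p in each role. Of each related list, up to 3 called genes in each direction are named. Summed signals add the unlogged values of a list's brightest probe sets. Figures were drawn with matplotlib 3.10.9.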

Additional observations from a re-analysis of the deposited data

How the results depend on the processing

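The 20 falls and 12 rises among member probe sets, the 15 falls and 6 rises among genes and the medians of the 40 genes (-0.13, and -0.14 relative to all genes) were recomputed under 16 alternatives. Centring gave 32 and 23 falls and a median of -0.22. Cyclic loess gave 5 and 1 rises and a median of -0.18 relative to all genes, and renewed quantile normalisation 7 and 3 rises. Without dim probe sets there were 12 falls and 3 rises among 36 probe sets. By gene there were 10 falls and 3 rises among 27, with a relative median of -0.037. In the main fit, 37.9% of all genes of that brightness fell and 16.4% rose. Without shared probe sets the relative median was -0.17. Leaving out 1 array at a time gave 17 to 22 falls and 9 to 11 rises of probe sets, 13 to 15 falls and 3 to 6 rises of genes, a median of -0.16 to -0.12 and a relative median of -0.17 to -0.13. The lowest count of rises of genes, 3, came without hydrogen replicate 2, and the medians of -0.16 and -0.17 without hydrogen replicate 3. Of these runs, the shares of all genes were counted only without hydrogen replicate 2 (20.4% lower and 19.1% higher). The counts of the other runs therefore do not set the members apart. Of the 32 called probe sets, 18 (13 lower and 5 higher) kept their call under every one of the 14 alternatives that test probe sets and included them. The same share over all called probe sets was not counted, so this number does not set the members apart. Lig1 turned to 0.040 after cyclic loess and 0.069 after renewed quantile normalisation, and Uhrf1 to -0.14 with the mean of its probe sets. The cause of these changes was not tested, apart from fewer probe sets or arrays where these were left out. The labels do not say whether their replicate numbers pair the samples. Deviations of same-numbered arrays correlated at 0.08, 0.03 and -0.11, and those of differently numbered arrays at -0.14 to 0.11. With 3 arrays a group, these values cannot show whether a pairing exists. The replicate block gave 19 falls and 13 rises of probe sets and 15 and 6 of genes, and the shares of all genes were not counted there. Dim signal limits 36 of the 72 member probe sets.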
